A study of Caenorhabditis elegans with 6 samples.

Results

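The glutathione S-transferase genes of the nematode Caenorhabditis elegans were followed across 6 libraries of whole-worm messenger RNA. Members were all genes whose WormBase symbol, found by pairing the sequence names of the count table with the WBcel235 annotation, is gst, gstk or gsto and a number. The annotation held 49 such genes, and 45 of the 19512 genes in the table were among them. The other 4, gst-14, gst-17, gst-18 and gst-37, were not analysed here. By symbol, 40 of the 45 are gst genes, which include gst-42 of the zeta class, 2 are of the kappa class (gstk) and 3 of the omega class (gsto). Enough counts for a test were found for 23 members, 19 gst, 2 gstk and 2 gsto.

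The study asked which genes respond to loss of ELT-2, a GATA transcription factor of the worm intestine. Wild-type N2 larvae, synchronized at the L1 stage with about 10000 in a culture, spent 28 hours on bacteria and were harvested at L4, the last larval stage. In control cultures the bacteria held an empty vector, and in elt-2 RNAi cultures they made double-stranded RNA of elt-2. Each group had 3 biological replicates lettered A, B and C, and the labels name no transgene or mutation. Feeding RNAi is not limited to the intestine, and each library holds the RNA of whole worms, so fewer cells of a type and less RNA per cell cannot be told apart.

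Glutathione S-transferases join glutathione, a small sulfur-containing peptide, to reactive compounds, which makes them easier to remove from the cell. Most are soluble enzymes, the kappa class is found in mitochondria and peroxisomes, and the omega class carries a cysteine in its active site. In C. elegans the family is large, with many copies lying side by side on the chromosomes, and several members are switched on in the intestine by the stress factor SKN-1.

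Depth and composition differed between the libraries. Total counts ran from 16568515 to 35047530, and the most abundant 3% of genes took between 72.8% and 93.3% of a library. Scaling factors of the trimmed mean of M-values (TMM) lay between 0.491 and 3.47. From A to C they were 3.47, 1.36 and 0.973 in control and 0.697, 0.635 and 0.491 under elt-2 RNAi. Every control library thus had a higher factor, and fewer total counts, than every library labelled elt-2 RNAi. Depth and scaling therefore cannot be told apart from the labels. Levels are in counts per 1000000 counts of the TMM-scaled library size (CPM) unless library size alone is named, and where 3 values stand together they belong to A, B and C in that order. The targeted gene went against the labels. Control libraries held 4.09, 1.54 and 3.32 CPM of elt-2, and libraries labelled elt-2 RNAi held 33.4, 5.82 and 179 CPM. Every library labelled elt-2 RNAi was thus above every control on this scale, and by library size alone the groups overlapped. On the log2 scale edgeR put the difference at 4.60 ± 1.16 (SE, adjusted p = 0.0395), which fell short of the threshold without elt-2 RNAi C (2.80, adjusted p = 0.135 in edgeR) or without control A (4.70, 0.1035). An exact two-sided permutation test of the level gave p = 0.1, the smallest value that 3 against 3 allows, and p = 0.2 by library size. Groups are therefore named by their labels, and every direction is between libraries as labelled. Whether labels or columns were exchanged was not tested. An exchange of the whole groups would turn every direction given here, and an exchange of single libraries need not turn them all.

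A few genes made up much of the family's RNA. The 3 most abundant members of each library took between 39.4% and 59.5% of its glutathione S-transferase counts. Over the 6 libraries gst-20 averaged 67.2 CPM, gst-7 42.7, gst-39 38.5, and gst-26 and gst-24 21.6 CPM each. Divided by transcript length, from 688 bases for gst-26 to 817 for gst-20, these 5 genes kept the same order. With lengths so close the division could move little, and the study takes its counts of transcript ends to be insensitive to gene size. The 22 untested members had at most 30 counts in any library.

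**Figure D1:**
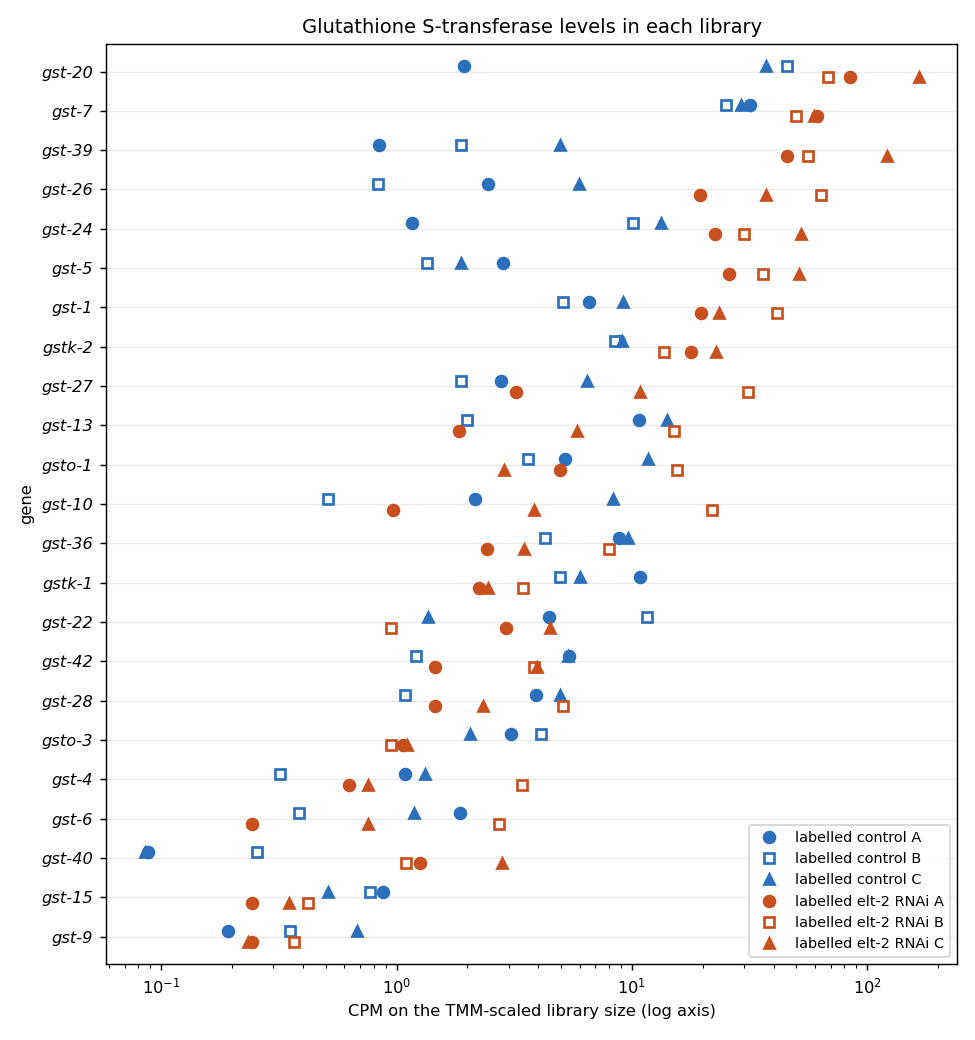
Level of each of the 23 tested glutathione S-transferases in each library, in CPM on the TMM-scaled library size (log axis); blue symbols are the 3 libraries labelled control, orange the 3 labelled elt-2 RNAi, and open squares are the B libraries. The libraries labelled elt-2 RNAi lie above all control libraries for 9 genes and below them for 3, and the open squares often mark the lowest control or the highest elt-2 RNAi value.

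Across the family, 7 of the 23 tested members were higher and 2 were lower under elt-2 RNAi, as labelled, at an edgeR adjusted p under 0.10, and 14 were not called. That is 30.4% higher and 8.70% lower, beside 13.0% and 15.9% of all 11474 genes tested. Their median log2 fold change was 0.81, with 14 above 0 and 9 below, where the median gene stood at -0.12. Scaling moved these figures: by library size alone the median gene shifted to -1.77 and the members' median to -0.88, and 4 members were called higher and 7 lower. Single libraries moved them too. Without elt-2 RNAi C, 2 members (gst-39 and gst-5) were called higher and none lower, without elt-2 RNAi A none was lower and 6 were higher, and without elt-2 RNAi B none was lower and 5 were higher. At an unadjusted p under 0.05 those 3 edgeR fits had 2, 2 and 4 members lower. Without control A, 1 was lower and 5 were higher. Over all genes those fits called 20, 695, 414 and 588 genes lower, against 1823 with all libraries. Genes called higher in them numbered 445, 995, 849 and 1057, against 1489 with all libraries. The filter asked for 0.372 counts per 1000000 by library size in 3 libraries, which 18 members passed in all 6, 4 with all 3 control libraries but not all of the others, and gst-40 with the elt-2 RNAi libraries alone, so that it could be tested because it was high there. Without gst-40, 6 members were called higher.

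Among members that passed the filter in all 6 libraries, gst-39, gst-5 and gst-26 differed most. Control libraries held 0.842, 1.89 and 4.93 CPM of gst-39, against 45.8, 56.0 and 121 CPM under elt-2 RNAi. No control library came near the lowest elt-2 RNAi value, and edgeR gave a log2 difference of 4.87 ± 0.79 (SE, n = 3 per group, adjusted p = 0.0108). It stayed between 4.28 and 5.87 when any 1 library was left out and was called in 6 of 6 such fits. For gst-5 the values were 2.82, 1.34 and 1.87 CPM in control and 25.9, 36.0 and 51.1 CPM under elt-2 RNAi. Groups were again far apart, and the log2 difference of 4.22 ± 0.49 (SE, edgeR adjusted p = 0.00477) had the smallest standard error of these 3 genes. It too was called in 6 of 6 fits with a library left out, between 3.94 and 4.51.

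Levels of gst-26 were 2.46, 0.831 and 5.96 CPM in control and 19.6, 63.6 and 37.2 CPM under elt-2 RNAi. Control B was the lowest and elt-2 RNAi B the highest of all 6. The log2 difference was 3.71 ± 0.78 (SE, edgeR adjusted p = 0.0251), and 2.70 with both B libraries left out (edgeR adjusted p = 0.077). The rare gst-40 had 5, 8 and 2 counts in control and 26, 21 and 48 under elt-2 RNAi. In CPM these are 0.0877, 0.256 and 0.0851 against 1.26, 1.10 and 2.79. The fitted log2 difference of gst-40 was 3.56, given as a description only, since no control library reached the filter level. Without elt-2 RNAi C, gst-26 was not called (3.81, edgeR adjusted p = 0.1003), and without control C it was at 4.70. Scaling by library size alone left gst-39 (3.62), gst-5 (2.30) and gst-26 (2.23) called and in the same direction.

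The other 3 members called higher differed by less. Control libraries held 6.54, 5.08 and 9.15 CPM of gst-1, and elt-2 RNAi libraries 19.7, 41.4 and 23.4 CPM, without overlap and with the B library on top. Its log2 difference was 2.03 ± 0.44 (SE, edgeR adjusted p = 0.0266). It was not called without elt-2 RNAi C (2.21, edgeR adjusted p = 0.1003), without both B libraries (1.39, 0.11) or by library size alone (0.42, 0.63). The kappa-class gene gstk-2 was nearly equal in the control libraries, at 8.82, 8.51 and 9.10 CPM, and stood at 17.9, 13.7 and 22.7 CPM under elt-2 RNAi. Its log2 difference of 1.04 ± 0.34 (SE, edgeR adjusted p = 0.0713) turned to -0.66 by library size alone. The same reversal was seen for gst-7, at 31.6, 25.0 and 29.0 CPM in control and 61.2, 50.0 and 59.2 CPM under elt-2 RNAi. These groups did not overlap in CPM, and the log2 difference was 0.99 ± 0.35 (SE, edgeR adjusted p = 0.0871), or -0.73 by library size alone. No fit with a library left out called gst-7 (edgeR adjusted p from 0.111 to 0.232). For gstk-2 the only such fit to call it was that without control C (edgeR adjusted p = 0.0944), and in the other 5 the adjusted p was up to 0.231.

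Lower members were gsto-3, of the omega class, and gstk-1, of the kappa class. Control libraries held 3.05, 4.13 and 2.04 CPM of gsto-3, and elt-2 RNAi libraries 1.07, 0.944 and 1.11 CPM. The latter lay close together and below every control, with a log2 difference of -1.56 ± 0.42 (SE, edgeR adjusted p = 0.0451). For gstk-1 the values were 10.8, 4.92 and 6.0 CPM in control and 2.23, 3.46 and 2.44 CPM under elt-2 RNAi. Control A was the highest, the groups did not overlap, and the log2 difference was -1.42 ± 0.42 (SE, edgeR adjusted p = 0.0564). By library size alone the values were -3.26 for gsto-3 and -3.33 for gstk-1. Leaving out elt-2 RNAi A, B or C ended the call of gsto-3 (edgeR adjusted p = 0.12, 0.14 and 0.18) and of gstk-1 (0.15, 0.11 and 0.22), and leaving out control A ended that of gstk-1 (0.12). Both signs were negative in every alternative fit. The kappa-class pair thus went opposite ways in CPM, gstk-2 higher and gstk-1 lower, whereas by library size alone both were below 0.

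**Figure D2:**
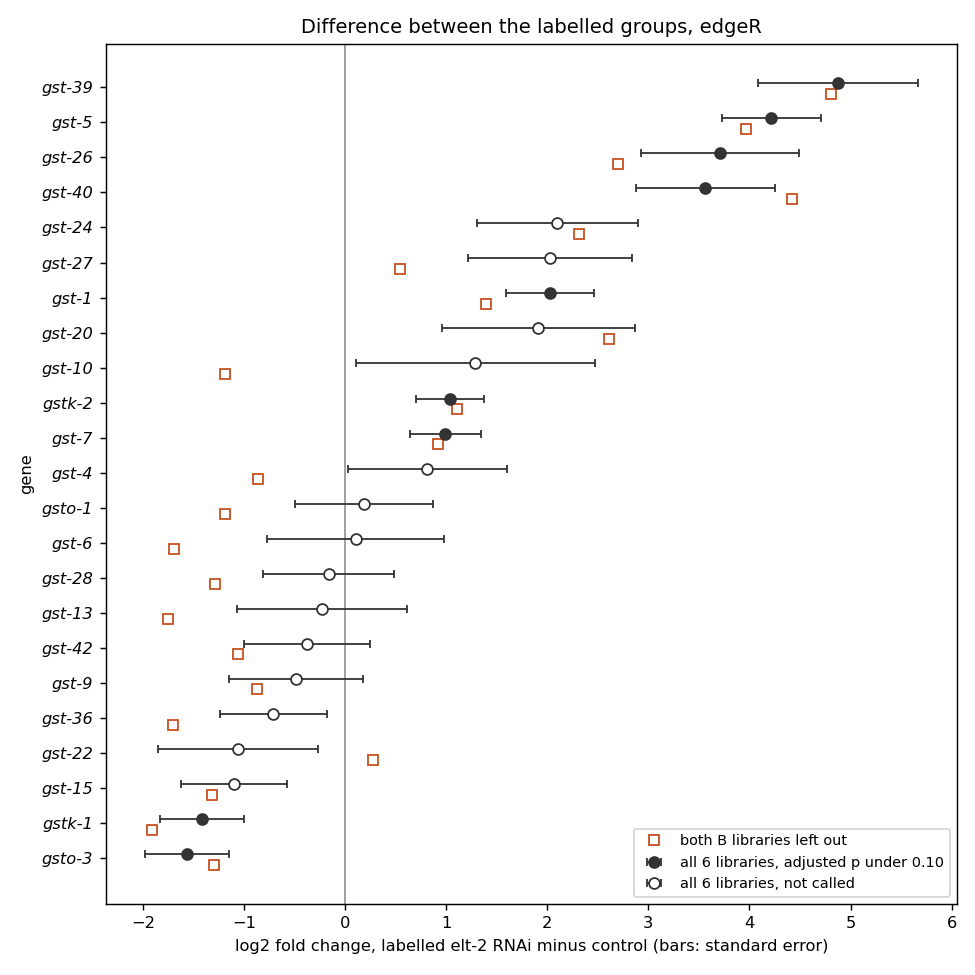
Log2 fold change of each tested glutathione S-transferase, labelled elt-2 RNAi minus labelled control, with its standard error from edgeR; filled circles are members called at an adjusted p under 0.10, open circles those not called, and open squares the value with both B libraries left out. The values run from -1.56 for gsto-3 to 4.87 for gst-39, and without the B libraries gst-10, gst-4, gsto-1 and gst-6 move below 0 and gst-22 moves above it.

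Members that were not called include the best known of the family. The gst-4 promoter drives the usual reporter of SKN-1 and oxidative stress in living worms. Control libraries held 1.09, 0.320 and 1.32 CPM of gst-4, and elt-2 RNAi libraries 0.631, 3.41 and 0.756 CPM. The groups overlapped, and elt-2 RNAi B was the only one of its group above every control. The log2 difference was 0.81 ± 0.79 (SE, edgeR adjusted p = 0.464), -0.86 with both B libraries left out (0.356) and -0.88 by library size alone (0.466). GST-10 conjugates 4-hydroxynonenal, a product of lipid peroxidation. Its gene stood at 2.16, 0.512 and 8.34 CPM in control and at 0.970, 21.9 and 3.84 CPM under elt-2 RNAi, so that the lowest and the highest of the 6 values were both from B libraries. The log2 difference was 1.29 ± 1.18 (SE, edgeR adjusted p = 0.438), and -1.18 without the B libraries (0.371).

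The enzyme encoded by gst-42 is maleylacetoacetate isomerase, a step of tyrosine degradation, and the study followed this gene with a fluorescent reporter. That reporter was measured in adults, after RNAi begun in adulthood, and the study reports it lower under elt-2 RNAi. The values here are RNA of L4 larvae, so stage and measure differ. Control libraries held 5.40, 1.22 and 5.36 CPM of gst-42, and elt-2 RNAi libraries 1.46, 3.83 and 3.96 CPM. The lowest values, control B and elt-2 RNAi A, came from different groups. The log2 difference was -0.38 ± 0.63 (SE, edgeR adjusted p = 0.674), and between -0.86 and 0.04 when 1 library was left out. By library size alone gst-42 was called lower at -2.24 (edgeR adjusted p = 0.066), where the median gene was at -1.77. The omega-class gene gsto-1 overlapped likewise, at 5.21, 3.61 and 11.7 CPM against 4.95, 15.5 and 2.85 CPM. Its log2 difference was 0.19 ± 0.68 (SE, edgeR adjusted p = 0.852), and below 0 by library size alone (-1.23).

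Both gst-20 and gst-24 were abundant and had no overlap between groups in CPM, yet neither was called in the main edgeR fit. DESeq2 called both and gst-27. For gst-20 the values were 1.93, 45.6 and 37.3 CPM in control and 84.7, 68.0 and 166 CPM under elt-2 RNAi. Control A lay far below the other 5 libraries. The log2 difference was 1.91 ± 0.95 (SE, edgeR adjusted p = 0.18), and 1.23 without control A (0.13). For gst-24 they were 1.16, 10.1 and 13.3 CPM against 22.6, 29.9 and 52.4 CPM, again with control A lowest. Its log2 difference was 2.10 ± 0.80 (SE, edgeR adjusted p = 0.101), and it was called without control C (2.73, 0.073). Further edgeR fits called gst-24 with no filter (adjusted p = 0.0954), with at least 10 counts in every library (0.0746) and with the replicate letter as a block (0.0915). Levels of gst-27 were 2.77, 1.89 and 6.47 CPM in control and 3.20, 31.2 and 10.8 CPM under elt-2 RNAi, where the B library was again the highest. Its log2 difference was 2.03 ± 0.81 (SE, edgeR adjusted p = 0.114) and 0.55 without both B libraries (0.60), and it was called without control C (2.79, 0.065) or without elt-2 RNAi A (2.56, 0.076). With at least 10 counts in every library gst-27 was called too (edgeR adjusted p = 0.0918). The remaining members, gst-6, gst-28, gst-13, gst-9, gst-36, gst-22 and gst-15, had log2 differences from -1.10 to 0.10. Of these, gst-15 did not overlap between groups, at 0.877, 0.768 and 0.510 CPM in control and 0.243, 0.419 and 0.349 CPM under elt-2 RNAi. It passed the filter through the control libraries alone, so that it could be tested because it was high there. Members whose groups did not overlap numbered 9 higher, gst-40 among them, and 3 lower, gst-15 among them. The shares of all tested genes were 22.5% and 24.2%. By library size alone 5 were higher and 5 lower, on a scale where the median gene was at -1.77. The share of all genes without overlap was not computed on that scale.

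The B libraries stood at opposite ends of their groups in much of this family. In 11 of the 23 tested members, control B was the lowest control and elt-2 RNAi B the highest of its group. That arrangement occurred in 20.1% of all tested genes. The 11 were gst-1, gst-4, gst-6, gst-10, gst-13, gst-26, gst-27, gst-28, gst-36, gsto-1 and gstk-1. The opposite, with control B highest and elt-2 RNAi B lowest, occurred in 4 members, gst-20, gst-22, gst-40 and gsto-3, and in 15.3% of all tested genes. The letters were not taken as pairs, and the deviations of the B libraries from their group means correlated at -0.57 over genes. No test was made of this pattern, which was read from the same values.

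**Figure D3:**
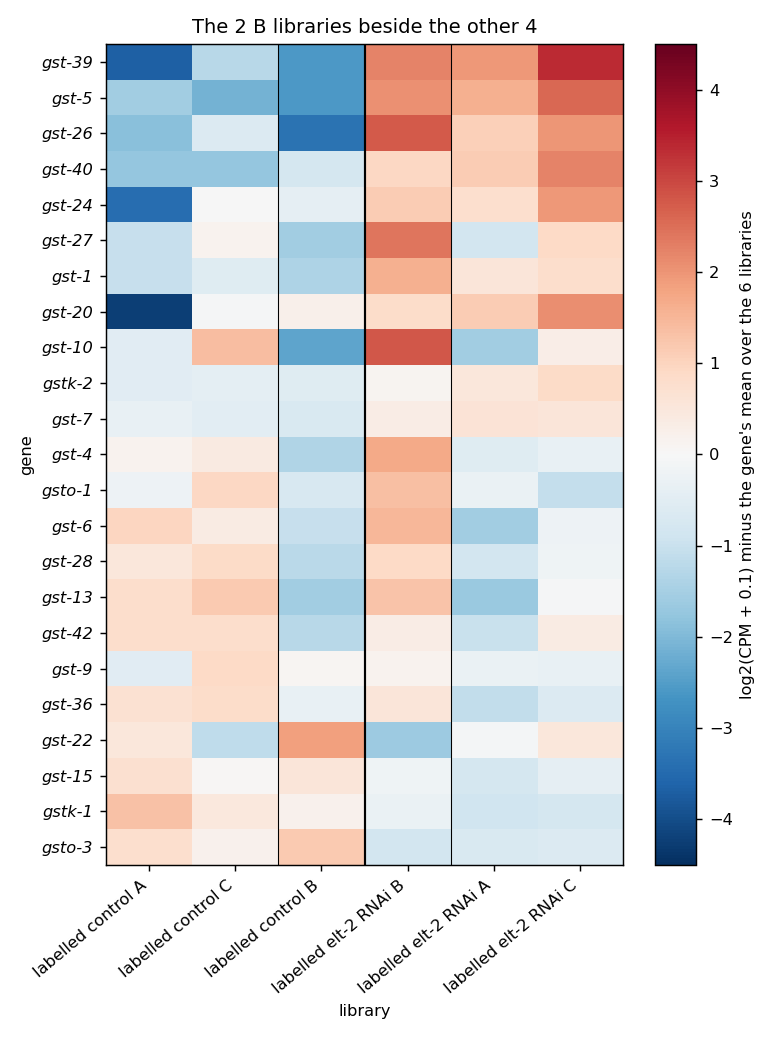
Log2(CPM + 0.1) of each tested glutathione S-transferase in each library, minus the mean of that gene over the 6 libraries; red is above and blue below the mean, the 2 B libraries stand side by side in the middle, and genes are ordered by their log2 fold change. Control B is blue and elt-2 RNAi B red for gst-10, gst-4, gst-6, gst-13 and gst-28, and control A and C of gst-6, gst-13 and gst-28 are red as well.

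With both B libraries left out, gst-5, gst-39, gst-26 and gst-40 were called higher and gstk-1, gst-36 and gst-43 lower. Of these, gst-40 and gst-43 entered the fit only through the group where they were high, and gst-43 had too few counts to be tested over all libraries. Among the 11696 genes tested in that fit, 7.57% were called higher and 8.36% lower. The median of the 23 members went from 0.81 to -0.86, while the median gene was at -0.22. Leaving out elt-2 RNAi B alone gave a members' median of -0.48. The sign of that median therefore rested on elt-2 RNAi B, whereas the calls of gst-5, gst-39 and gst-26 did not. Without B, gst-36 stood at 8.79 and 9.66 CPM in control and at 2.43 and 3.49 CPM under elt-2 RNAi. Its log2 difference was -1.71 (edgeR adjusted p = 0.085), where all 6 libraries gave -0.71 ± 0.53 (SE, 0.343), control B holding 4.25 CPM and elt-2 RNAi B 7.97 CPM.

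The family's genes lie mostly on chromosome II, which holds 23 of the 45, and neighbours did not all move together. Joining the 45 members at most 20000 bases apart gave 4 clusters, in WBcel235 coordinates taken from the annotation. The 4 annotated genes absent from the count table were not placed, so a cluster can hold more genes than are listed. The largest by members in the count table, on chromosome II from 15163817 to 15185389, holds 9. Of these, gst-26, gst-27, gst-28 and gst-39 were tested. Both gst-26 and gst-39 were called higher, and gst-27 was not called at 2.03. Nor was gst-28 called at -0.16, with 3.89, 1.09 and 4.93 CPM in control and 1.46, 5.08 and 2.33 CPM under elt-2 RNAi. A second cluster on the same chromosome, 13608154 to 13627145, holds gst-20, gst-24, gst-15, gst-12, gst-16 and gst-19, with 3 tested. The main edgeR fit called none of them, although gst-24 had an unadjusted p under 0.05 there and DESeq2 called gst-20 and gst-24. The third, 4879891 to 4893573, holds gst-6, gst-7, gst-8 and gst-9, where gst-7 alone was called. On chromosome IV, gst-3, gst-2 and gst-4 lie within 10139380 to 10143099, and only gst-4 had enough counts to be tested. Reads that match more than one copy can be lost or split between such neighbours, so the individual values of gst-26, gst-27, gst-28 and gst-39 are uncertain to that degree.

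As a share of all counts the family was small, at 0.0415% of control A and between 0.0182% and 0.0302% of the other 5 libraries. By library size alone control A held most, 415 counts per 1000000, against 188 and 182 in control B and C and 226, 302 and 286 under elt-2 RNAi. In TMM-scaled CPM the order turned, with sums of 121, 138 and 187 in control and 324, 476 and 583 under elt-2 RNAi, without overlap. The share that a gene took of the family's own counts does not depend on either scaling. For gst-39 that share was 0.697%, 1.37% and 2.63% in control and 14.1%, 11.8% and 20.8% under elt-2 RNAi. For gst-5 it was 2.34%, 0.973% and 0.999% against 7.98%, 7.56% and 8.76%. Both took a larger part in every elt-2 RNAi library, and gstk-1 went the other way, at 8.92%, 3.57% and 3.20% against 0.689%, 0.727% and 0.419%. The share of gst-20 did not follow the labels, at 1.60%, 33.0% and 19.9% in control and 26.1%, 14.3% and 28.4% under elt-2 RNAi. The 95% Wilson intervals of these shares, which cover counting error only, reached at most 1.40 percentage points to either side.

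**Figure D4:**
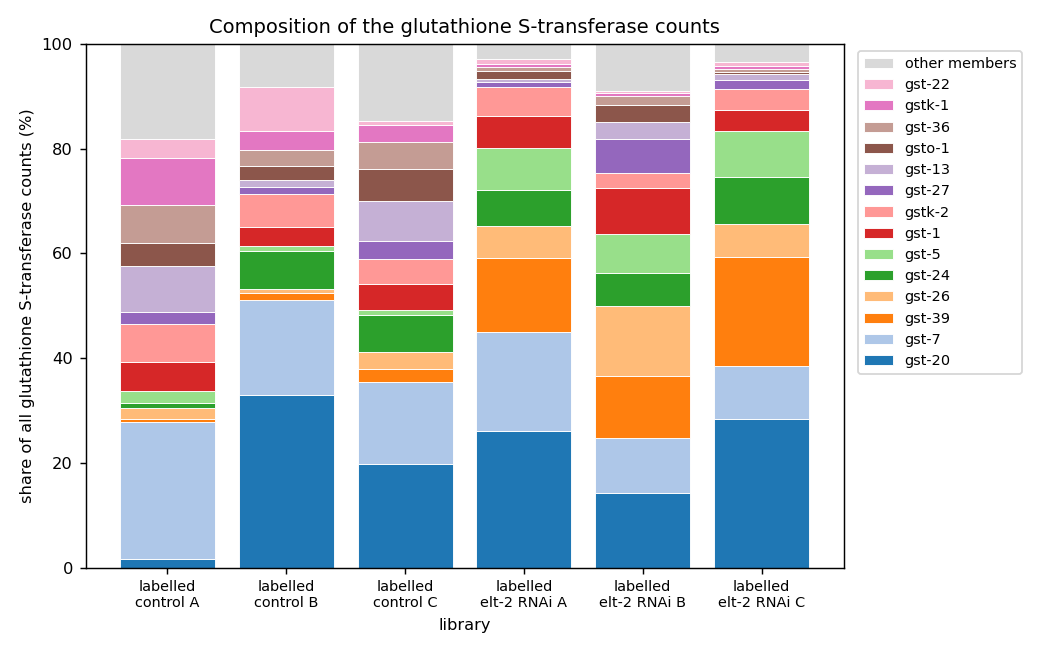
Share of all glutathione S-transferase counts taken by each of the 14 members that reached 5% in some library, and by the others together, in percent of the family's counts in each library. The bar of gst-39 is between 0.697% and 2.63% in the libraries labelled control and between 11.8% and 20.8% in those labelled elt-2 RNAi.

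Several of these values share sequence with another gene. Of the tested members, 8 overlap a neighbour in the annotation, and whether counting used strand is not given in the sources used here. Opposite-strand overlaps are gst-5 with nos-1, gstk-2 with elo-3, gsto-1 with kle-2, gst-36 with scav-5, gst-22 with F21H7.12, gst-40 with col-103 and gst-9 with msp-33, and gst-4 overlaps dhs-12 on the same strand. Beside gst-5, the germline gene nos-1 had between 52 and 109 counts in the 6 libraries and was not called. These 2 genes overlap at their ends only, from 10951592 to 10951603. Beside gst-40, the collagen gene col-103 had 1615, 4078 and 75750 counts in control and 91268, 60731 and 69356 under elt-2 RNAi. These are far more counts than gst-40 had itself, with control A and B lowest. The overlap covers gene ends only, from 762413 to 762419, and in control C, where col-103 had 75750 counts, gst-40 had 2. The part of col-103 in the gst-40 values was not tested. The major sperm protein gene msp-33, which lies wholly within gst-9, had between 789 and 7015 counts, and gst-9 at most 16.

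Among the 22 untested members, gst-43 and gst-23 were found mainly in the control libraries. Counts of gst-43 were 30, 8 and 12 in control and 1, 6 and 0 under elt-2 RNAi. With both B libraries left out it entered the fit through control A and C alone, where it was high, so its call there is not a result. Counts of gst-23 were 17, 9 and 3 against 0, 1 and 2. With no filter and all libraries, neither gst-43 (edgeR adjusted p = 0.277) nor gst-23 (0.24) was called. The omega-class gene gsto-2 averaged 0.0896 CPM in control and 0.0175 CPM under elt-2 RNAi, and gst-8, with 2 counts in control A and 0 in the other 5 libraries, had the lowest mean of all members.

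Genes that act with the transferases were taken from a list of 35, of which 33 were in the table and 29 tested. Of these, 6 were called higher and 5 lower, gpx-6 among the latter, beside the 13.0% and 15.9% of all genes. By library size alone 2 were higher and 16 lower. Glutathione is made by gcs-1 and gss-1 and kept reduced by the reductase gsr-1. Of these 3 genes gsr-1 was called, at 25.2, 75.1 and 80.1 CPM in control and 317, 206 and 351 CPM under elt-2 RNAi, a log2 difference of 2.28 (edgeR adjusted p = 0.0398). Every elt-2 RNAi library was above every control. The synthesis gene gcs-1, an established SKN-1 target, was not called at -0.78 (edgeR adjusted p = 0.166), nor was gss-1 at 0.76 (0.247). Glutaredoxins use glutathione to reduce disulfides, and glrx-3 (3.11, edgeR adjusted p = 0.00529) and glrx-21 (2.28, 0.0177) of the 5 were higher. Among the glutathione peroxidases, gpx-2 (2.97, edgeR adjusted p = 0.0188) and gpx-3 (1.69, 0.0803) were higher and gpx-6 (-1.78, 0.0862) lower. The gpx-6 value is a description only, since no elt-2 RNAi library reached the filter level and it could be tested because it was high in control. By library size alone gpx-3 turned to -0.11. On that scale glrx-3 (1.30, edgeR adjusted p = 0.135), glrx-21 (0.38, 0.682) and gpx-2 (1.15, 0.327) were not called either. Of the 5 called lower, 3 were left without control A and 1 without elt-2 RNAi A or B. Without elt-2 RNAi C, 3 of the 29 genes were called higher and none lower by edgeR (3 lower at an unadjusted p under 0.05). With both B libraries left out gsr-1 (2.60), fah-1 (2.46), xrep-4 (-1.42), mdt-15 (-1.55), nsy-1 (-1.51) and gpx-3 (1.19) were not called (edgeR adjusted p from 0.109 to 0.292).

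Tyrosine degradation and the gst-4 response touch single members. The enzyme after maleylacetoacetate isomerase is fumarylacetoacetate hydrolase, encoded by fah-1. Its levels were 5.74, 15.4 and 32.3 CPM in control and 84.7, 121 and 135 CPM under elt-2 RNAi, without overlap (log2 difference 2.67, edgeR adjusted p = 0.0359). The enzymes before gst-42 in the pathway, hgo-1 (-0.86, edgeR adjusted p = 0.249) and hpd-1 (-1.20, 0.145), were not called, nor was tatn-1 (0.0092, 0.987). With both B libraries left out hgo-1 was called lower (-1.77, edgeR adjusted p = 0.0834), as it was by library size alone (-2.46, 0.0277) and without the top 3% of genes (-1.38, 0.0867). Among regulators of the gst-4 response, 3 were called lower. They were the F-box gene xrep-4 (-1.23, edgeR adjusted p = 0.0442), the mediator subunit mdt-15 (-1.24, 0.0665) and the kinase nsy-1 (-1.45, 0.0402). By contrast, skn-1 itself was not called at -0.13 (edgeR adjusted p = 0.803). Nor were wdr-23 (-0.92, edgeR adjusted p = 0.103) and sek-1 (-0.69, 0.312), and pmk-1 had too few counts to be tested. The glyoxalase glod-4, which uses glutathione to clear methylglyoxal, was at 7.61, 5.76 and 5.19 CPM in control and 1.80, 2.15 and 2.21 CPM under elt-2 RNAi. It was called lower, at -1.59 (edgeR adjusted p = 0.0262), with no overlap between the groups.

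Marker genes of cell types also differed between the libraries. All 9 intestine markers, elt-2 among them, were tested, and none was at 0 in any library. Of these, 1 was called lower and 4 higher, beside 15.9% and 13.0% of all tested genes. Their summed level was 426 to 1148 CPM in control and 1711 to 4187 CPM under elt-2 RNAi, with elt-2 RNAi B highest. Most of that sum was the protease gene asp-1, at 227, 366 and 671 CPM in control and 1301, 3286 and 2320 CPM under elt-2 RNAi. Besides asp-1 and elt-2, act-5 (2.25) and pept-1 (2.05) were called higher and elt-7 (-1.44) lower, and ges-1 stood at -1.18 without a call. The 5 epidermis markers summed to 10.4 to 283 CPM in control, where control C was lowest, and to 12.4 to 16.0 CPM under elt-2 RNAi. Body wall muscle markers summed to 318 to 2452 CPM in control and 2092 to 2912 CPM under elt-2 RNAi, and pharynx muscle markers to 38.5 to 48.0 and 45.7 to 82.6 CPM. Sums of the intestine markers, given above, did not overlap between the groups. Germline sums did not overlap either (151 to 494 against 763 to 1033 CPM). The same held for sperm (142 to 867 against 1087 to 1687 CPM) and neurons (31.6 to 46.9 against 25.2 to 28.4 CPM). In the germline, sperm and neuron lists edgeR called 1 germline marker higher and 2 neuron markers lower. Of the 4 tested epidermis markers it called 2 lower, dpy-10 (-4.27) and sqt-3 (-4.93), both with overlapping groups. The pharynx muscle marker myo-2 was called higher (1.12), and no body wall muscle marker was called. The part of the marker genes in the glutathione S-transferase differences was not tested.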

How the data were processed

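Whole-worm poly-A RNA of 6 cultures was sequenced by 3SEQ, which reads the 3′ ends of transcripts. The table the authors deposited holds raw counts of reads for each gene and library, without normalization. Bowtie 0.12.7 is named in the submitters' processing notes, and the counter, genome build, annotation and strand use are not given in the sources used here. Sequence names were paired with WBcel235 symbols (Ensembl release 115), which matched 19081 of 19512 genes (97.8%). The filterByExpr function of edgeR 4.0.16 (R 4.3.3) kept 11474 genes. Labelled groups were compared by edgeR's two-sided quasi-likelihood test with TMM scaling, group as the only term and Benjamini-Hochberg adjustment over all tested genes. An adjusted p under 0.10 made a call, after the study's threshold, and its rank product method was replaced by this count test. Standard errors were taken as |log2 fold change| over √F. The code was tested on simulated data. Alternatives were library size with and without the top 3% of genes, DESeq2 1.42.0, other filters and thresholds, the replicate letter as a block, and libraries left out. Same-letter libraries deviated from their group means with correlations of -0.21 for A, -0.57 for B and -0.10 for C, so letters were not taken as pairs. All 23 tested members are named, and levels are given for those the results turn on. The members and lists were chosen with earlier results of these data known.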

Additional observations from a re-analysis of the deposited data

How the results depend on the processing

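Calls depended mostly on scaling and on which libraries entered. Plain library size gave 6007 lower and 438 higher genes, 7 lower and 4 higher glutathione S-transferases, and 16 lower and 2 higher genes of the other glutathione list. Without the top 3% of genes in the library size, 3747 genes and 11 other glutathione genes were lower. With both B libraries left out, 978 genes were lower and 885 higher, and 4 transferases were higher and 3 lower, counting gst-40 and gst-43, which entered that fit only through the group where they were high. At an adjusted p under 0.05, 675 genes, 1 transferase and 3 other glutathione genes were lower and 912 genes higher. DESeq2 kept 7 of 7 higher and 2 of 2 lower transferases and added gst-20, gst-24 and gst-27.

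With the replicate block, 339 genes were lower and 880 higher, and 0 transferases and 0 other glutathione genes were lower in edgeR (2 and 4 at an unadjusted p under 0.05), although the letters were not taken as pairs. The block gave gsto-1 -0.0039 and gst-6 -0.29.

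Fits with 1 library left out called 20 to 2360 genes lower and 445 to 1930 higher, and 0 to 2 transferases lower and 2 to 8 higher. Of the other glutathione genes they called 0 to 7 lower and 3 to 6 higher, and elt-2 lay between 2.80 and 5.24 on the log2 scale. 

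Log2 differences that changed sign by library size alone were gst-7 (-0.73), gstk-2 (-0.66), gsto-1 (-1.23), gst-4 (-0.88), gst-6 (-1.83) and gpx-3 (-0.11). Without the top 3% of genes they were gsto-1 (-0.29) and gst-6 (-0.44), and with both B libraries left out gsto-1 (-1.19), gst-10 (-1.18), gst-22 (0.27), gst-4 (-0.86) and gst-6 (-1.69). With 1 library left out, gst-13 ranged from -1.14 to 0.37, gsto-1 from -0.73 to 0.92, gst-10 from -0.54 to 2.82, gst-42 from -0.86 to 0.039, gst-28 from -0.72 to 0.35, gst-4 from -0.30 to 1.27, gst-6 from -1.12 to 0.68 and gst-9 from -0.97 to 0.17. The causes were not tested.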

Other observations

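Ratios of counts within a library are free of any scaling between libraries. The pairs were chosen after their values were seen, so no test accompanies them. Neighbouring gst-26 and gst-27 had a count ratio of 0.886, 0.441 and 0.921 in the controls, listed from A to C, against 6.11, 2.04 and 3.44 under elt-2 RNAi. In the same cluster, gst-39 had 0.216, 1.74 and 1.0 counts for each count of gst-28 in control and 31.4, 11.0 and 52.2 under elt-2 RNAi. For both pairs every elt-2 RNAi library was above every control. The ratios of gst-24 to gst-20 and of gst-7 to gst-6 overlapped between the groups. Whether reads are split between such copies was not tested.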
